A study of Mus musculus with 4 samples.

Results

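The mir-99, mir-100 and mir-125 microRNAs were examined in 4 small RNA libraries from mouse fetal liver, 2 wildtype and 2 Ago2 CD. They comprise 6 hairpins (Mir99a, Mir99b, Mir100, Mir125a, Mir125b-1 and Mir125b-2) of 2202 annotated mouse hairpins. They were chosen by name as families associated with blood progenitors, and their reads were those matching a hairpin without mismatch, alone or with 1 to 3 extra nucleotides at the 3′ end. Of the 1517 arms of any hairpin with a read, 11 belonged to these hairpins. Ago2, an Argonaute protein, is able to cut RNA, and Ago2 CD stands for a catalytic dead mutant of it. Livers were dissected and flash frozen, total RNA was taken with Trizol, and libraries were made with a modified TruSeq small RNA protocol. The submitters call the libraries biological replicates. Fetal age, strain, zygosity and the number of animals are not given in the sources used here. The p-values therefore measure only the spread between these libraries.

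The libraries held 13138065 to 21875540 reads, of which 7814124 to 14423028 lay on microRNA arms. The 6 hairpins together received 29662 and 34340 reads from wildtype, and 75472 and 45181 reads from Ago2 CD, where pairs of values here and below follow the replicate numbers. Reads went up to 50 nt for wildtype replicate 1 and for Ago2 CD replicate 2, but up to 46 nt for the other library of each genotype. Each genotype therefore has 1 library of each read length, and results are given with read length beside genotype where it matters. miR-451a, whose maturation is known to need the cutting activity of Ago2, stood at 839577 and 415524 counts per 1000000 (CPM) in the wildtype libraries and at 1203 and 965 CPM in the libraries labelled Ago2 CD. CPM of arms were scaled by the trimmed mean of M values (TMM) on reads of arms, so those of a library need not add up to 1000000. CPM of the genomic clusters, given below, were scaled by TMM on the reads of clusters. Arm and cluster values are therefore not on the same scale. Among the progenitor-associated microRNAs listed for comparison (miR-126a-3p, miR-130a-3p, miR-155-5p, miR-196b-5p, miR-10a-5p, miR-29a-3p, miR-221-3p and miR-222-3p), all 8 had reads in every library. Marker arms of other cell types were present too, with the hepatocyte list at 25184 to 70482 CPM and the myeloid and lymphoid list at 38165 to 56737 CPM. The libraries are thus of whole liver and not of sorted progenitors, and in such bulk samples fewer cells of a type cannot be told apart from less RNA per cell.

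MicroRNAs guide Argonaute proteins to messenger RNAs mainly through the seed, bases 2 to 8 counted from the 5′ end. The mir-99 and mir-125 families lie in ancient clusters with a let-7 gene between them, and each hairpin gives a 5p and a 3p strand, of which the 5p strand is usually the one that is loaded. miR-125 is known for its part in blood stem cell number and self-renewal, and miR-99 and miR-100 for targets in the mTOR and IGF1 receptor pathways. Blood formation takes place in the liver of the fetus, among hepatoblasts, stroma and endothelium.

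The mature sequences show which members can be told apart by their reads and which share a seed. All 6 hairpins matched RefSeq (GRCm38.p6), with 12 mature entries and 11 distinct sequences, because both mir-125b hairpins give the same 5p strand. Sequences run 5′ to 3′ and capitals mark the seed.
miR-99a-5p: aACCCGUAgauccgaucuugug
miR-99b-5p: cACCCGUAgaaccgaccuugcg
miR-100-5p: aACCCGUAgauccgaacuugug
miR-125a-5p: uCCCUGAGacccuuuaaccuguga
miR-125b-5p: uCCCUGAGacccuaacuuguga
miR-99a-3p: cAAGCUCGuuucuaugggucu
miR-99b-3p: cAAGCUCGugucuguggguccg
miR-100-3p: aCAAGCUUgugucuauagguau
miR-125a-3p: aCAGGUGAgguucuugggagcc
miR-125b-1-3p: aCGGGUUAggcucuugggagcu
miR-125b-2-3p: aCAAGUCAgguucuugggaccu

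The 5p strands fall into 2 seed families: 3 sequences carry ACCCGUA and 2 carry CCCUGAG. Counted from the 5′ end, miR-100-5p differs from miR-99a-5p by U16A alone, and miR-99b-5p differs from miR-99a-5p by A1C, U11A, U16C and U21C. Compared position by position without gaps over the 22 nt of miR-125b-5p, miR-125a-5p differs from it at 7 positions. A14U (A in miR-125b-5p, U in miR-125a-5p) is the first of these, and miR-125a-5p is 24 nt long. A shift from the extra bases of miR-125a-5p counts as differences in this comparison. Of the 3p strands, miR-99a-3p and miR-99b-3p share the seed AAGCUCG, and the other 4 each have their own.

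In GRCm38 the hairpins lie on the plus strand in 3 clusters. Mir99a (chr16:77598936-77599000) and Mir125b-2 (chr16:77646273-77646343) lie in introns of the noncoding host gene Mir99ahg, with Mirlet7c-1 between them at 656 bases from Mir99a and 46522 bases from Mir125b-2. Mir99b (chr17:17830188-17830257) lies in an intron and Mir125a (chr17:17830812-17830879) overlaps an exon of the protein-coding gene Spaca6, and Mirlet7e lies 94 bases from Mir99b and 367 bases from Mir125a. Mir100 (chr9:41531425-41531504) and Mir125b-1 (chr9:41581926-41582002) lie in introns of the noncoding gene 3110039I08Rik, a RefSeq synonym of Mir100hg, with Mirlet7a-2 5211 bases from Mir100 and 45114 bases from Mir125b-1. Mir125b-1 also overlaps an exon of the sense intronic gene Gm28119, Mir125b-2 overlaps C130023A14Rik, and on the minus strand Mir100 lies opposite an exon of Gm48742 and Mir99a opposite an intron of Gm11146.

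The 5p strands of miR-125a, miR-125b, miR-99a and miR-99b were each seen at 321 CPM or more in every library, miR-100-5p at 82.8 CPM or less, and none of them changed between genotypes by more than the replicates allowed. miR-125a-5p, the most abundant, had 1367 and 1231 CPM in wildtype against 1325 and 1316 CPM in Ago2 CD. The Ago2 CD libraries lay inside the range of the wildtype libraries, and the group means were 1299 ± 96.1 (SD, n = 2) and 1321 ± 6.36. miR-125b-5p, its seed relative, had 1229 and 1002 CPM in wildtype against 874 and 1104 CPM in Ago2 CD. The groups overlapped, with means of 1115 ± 160.2 and 989 ± 163. miR-99a-5p had 913 and 643 CPM in wildtype against 639 and 845 CPM in Ago2 CD, so in each genotype the 50 nt library was the higher one. miR-99b-5p had 366 and 321 CPM in wildtype against 357 and 402 CPM in Ago2 CD, which overlapped, with means of 343 ± 31.7 and 379 ± 31.7. miR-100-5p had 82.8 and 32.8 CPM in wildtype against 24.9 and 68.7 CPM in Ago2 CD. Its libraries differed more within a genotype than between the genotypes, whose means were 57.8 ± 35.4 and 46.8 ± 31.0.

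**Figure D1:**
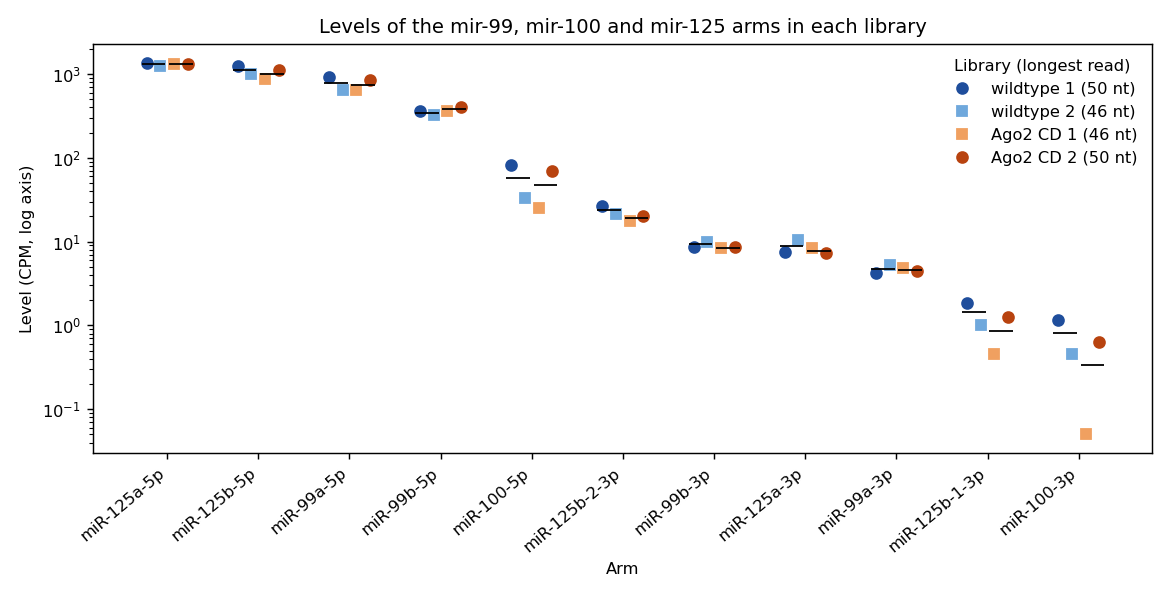
Level of each of the 11 arms in the 4 libraries, in TMM-scaled CPM on a log axis, with bars at the mean of each genotype (n = 2). The 5 arms on the left, all 5p, run from 1367 CPM for miR-125a-5p down to 24.9 CPM for miR-100-5p, and the 3p arms reach at most 26.3 CPM with the genotypes intermixed or close together.

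Among 584 arms tested, miR-125a-5p ranked 65 by its mean level, miR-125b-5p 73, miR-99a-5p 87, miR-99b-5p 131 and miR-100-5p 236. In that order miR-125a-5p and miR-125b-5p differed by less than the spread of miR-125b-5p, whose highest library (1229 CPM) lay just under the lowest of miR-125a-5p (1231 CPM). Across the libraries the ranges of miR-125b-5p and miR-99a-5p overlapped, while miR-99b-5p and miR-100-5p each stood apart from their neighbours in every library. Within each library these strands kept the same order of level. miR-125b-5p, at 1229 and 1002 CPM in wildtype and 874 and 1104 CPM in Ago2 CD, was each time above miR-99a-5p (913, 643, 639 and 845 CPM).

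edgeR's quasi-likelihood test with Benjamini-Hochberg adjustment called 2 of the 584 arms (0.342%), and called 0 of the 10 member arms that passed the filter on low counts. At an unadjusted p under 0.05 it called 17 arms, none of them a member, and DESeq2 called 6 arms, none of them a member. The log2 fold change of Ago2 CD over wildtype was 0.02 for miR-125a-5p (SE 0.26, 95% interval -0.66 to 0.71) and -0.17 for miR-125b-5p (SE 0.29, interval -0.95 to 0.61). It was -0.07 for miR-99a-5p (SE 0.33, interval -0.96 to 0.82), 0.14 for miR-99b-5p (SE 0.27, interval -0.58 to 0.87) and -0.31 for miR-100-5p (SE 0.72, interval -2.24 to 1.63). The adjusted p was 0.997 for each of these 5 arms in this edgeR fit. With 2 libraries per genotype these intervals leave room for changes of up to about the size of their bounds, so equal levels were not shown.

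A model that held read length beside genotype narrowed the intervals. It called 10 arms (1.71%), again 0 of the 10 member arms. At an unadjusted edgeR p under 0.05 it had 142 of the 584 arms, none of them a member. With 4 libraries the added term leaves less replication to estimate the spread from, so the narrower intervals are less firm than they look. In it the log2 fold change was 0.03 for miR-125a-5p (interval -0.27 to 0.32), -0.18 for miR-125b-5p (interval -0.47 to 0.12), -0.06 for miR-99a-5p (interval -0.36 to 0.24), 0.15 for miR-99b-5p (interval -0.17 to 0.46) and -0.33 for miR-100-5p (interval -0.82 to 0.15). The edgeR adjusted p of the 10 arms in this model ran from 0.347 to 0.948. Within the 46 nt libraries alone the log2 ratio of Ago2 CD to wildtype was 0.11, -0.20, -0.01, 0.15 and -0.40 for the same arms in the same order, and within the 50 nt libraries it was -0.05, -0.15, -0.11, 0.14 and -0.27. miR-125a-5p thus had opposite signs within the read lengths and the other 4 arms kept theirs.

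**Figure D2:**
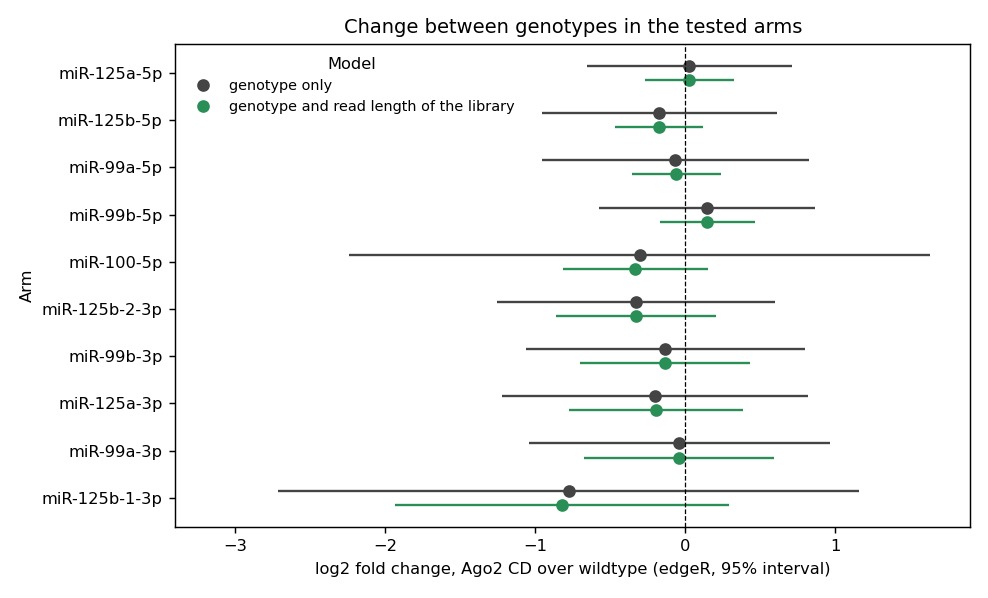
Log2 fold change of Ago2 CD over wildtype with its 95% interval (edgeR, n = 2 per genotype) for the 10 tested arms, from a model of genotype alone (grey) and of genotype with the read length of the library (green). Every interval spans 0 in both models, and that of miR-100-5p shortens from -2.24 to 1.63 down to -0.82 to 0.15.

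These signs are relative to the other arms. TMM put the median of all tested arms at 0.04. When all reads on arms served as library size without TMM, that median was 0.74. miR-99a-5p, miR-125b-5p and miR-100-5p then had log2 fold changes of 0.69, 0.56 and 0.51, positive but below the median. miR-99b-5p (0.88) and miR-125a-5p (0.76) lay above it. On that unscaled footing the 11 arms took 0.247% and 0.316% of the arm reads in wildtype against 0.450% and 0.460% in Ago2 CD. The total behind these shares includes miR-451a, at 839577 and 415524 TMM-scaled CPM in wildtype against 1203 and 965 in Ago2 CD. The shares therefore also move with miR-451a and are not a measure of the members alone. Shares without miR-451a were not computed.

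The level of miR-100-5p followed the read length of the library more than did any other 5p member. Its mean was 75.7 CPM in the 50 nt libraries and 28.8 CPM in the 46 nt libraries, a ratio of 2.63. The ratio was 1.37 for miR-99a-5p, 1.24 for miR-125b-5p, 1.13 for miR-99b-5p and 1.05 for miR-125a-5p. Of all 584 arms, 31.2% were higher in both 50 nt libraries than in both 46 nt libraries and 29.6% were lower in both. What else differed between these pairs of libraries is not given in the sources used here, and its part in the levels was not tested. Leaving out each library in turn moved the log2 fold change of miR-100-5p from -1.19, without Ago2 CD replicate 2, to 0.54, without wildtype replicate 1.

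Summed by seed, both families overlapped between the genotypes. The ACCCGUA family of miR-99a-5p, miR-99b-5p and miR-100-5p had 1361 and 996 CPM in wildtype against 1021 and 1316 CPM in Ago2 CD. The CCCUGAG family of miR-125a-5p and miR-125b-5p had 2596 and 2233 CPM in wildtype against 2199 and 2421 CPM in Ago2 CD. miR-99a-5p supplied 62.6% to 67.0% of its family in the 4 libraries, and miR-100-5p, which differs from it by a single base, 2.44% to 6.08%. miR-125a-5p supplied 52.7% and 55.1% of its family in wildtype against 60.3% and 54.4% in Ago2 CD.

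miR-99a-5p and miR-100-5p differ at base 16 only, so their reads were also counted by that base in all 4 letters. The 22 nt reads of each are shown with base 16 in capitals.
miR-99a-5p read: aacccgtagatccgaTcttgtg
miR-100-5p read: aacccgtagatccgaActtgtg
Across the libraries, wildtype before Ago2 CD, the first had 2645, 2549, 5591 and 3977 reads, and the second had 186, 131, 228 and 251. The same read with C at base 16 had 5, 2, 3 and 3 reads and with G 0, 0, 0 and 1. The miR-100-5p form was thus at 4.08% to 7.03% of the miR-99a-5p form, and the forms that match neither gene were at 0.189% or below.

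The 3 clusters were compared by the reads that match hairpins of 1 cluster only, so miR-125b-5p and the let-7a and let-7c strand, which several loci share, counted for none of them. The clusters on chromosomes 16 and 9 lose their shared strands in this count, so the levels do not rank the 3 clusters. The chromosome 17 cluster of Mir99b, Mirlet7e and Mir125a had 2538 and 2628 CPM in wildtype against 2802 and 2568 CPM in Ago2 CD. The chromosome 16 cluster of Mir99a, Mirlet7c-1 and Mir125b-2 had 1093 and 766 CPM in wildtype against 735 and 942 CPM in Ago2 CD. The chromosome 9 cluster of Mir100, Mirlet7a-2 and Mir125b-1 had 115 and 62.0 CPM in wildtype against 53.2 and 87.1 CPM in Ago2 CD. The genotypes overlapped in all 3, and in the clusters on chromosomes 16 and 9 the 50 nt library was the higher one in each genotype. edgeR's quasi-likelihood test over 247 clusters called 1 (0.405%), and none of these 3. Their log2 fold changes were 0.06 (SE 0.24), -0.15 (SE 0.31) and -0.34 (SE 0.50) in that order, each with an edgeR adjusted p of 0.9996. With read length in the model 4 clusters were called (1.62%) and again none of these 3.

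The let-7 strands of the same clusters, let-7 being known for repressing growth and fetal gene programmes, were compared as the genomic neighbours. The 5p strands of let-7a and let-7c were counted together, because their most frequent reads agree over the first 18 nt. Together they had 4397 and 6664 CPM in wildtype against 7628 and 5430 CPM in Ago2 CD, including reads of loci outside these clusters. let-7e-5p, encoded between Mir99b and Mir125a, had 452 and 747 CPM in wildtype against 843 and 650 CPM in Ago2 CD, and its log2 fold change was 0.32 (SE 0.37, edgeR adjusted p 0.997). The model that held read length gave it 0.35 with an edgeR adjusted p of 0.201. Both of these let-7 levels were lower in the 50 nt libraries, at ratios of 0.688 and 0.693. The 5p strands of miR-99b and miR-125a, from the same cluster as let-7e, had ratios of 1.13 and 1.05. let-7e-3p had 6.19 and 5.31 CPM in wildtype against 6.23 and 6.94 CPM in Ago2 CD. It was higher in both Ago2 CD libraries, as were 15.8% of all tested arms, with a log2 fold change of 0.20 (SE 0.36, edgeR adjusted p 0.997). let-7c-1-3p had 7, 5, 9 and 11 reads in the libraries, wildtype before Ago2 CD, and did not pass the filter on low counts.

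The 3p strands were scarce. miR-125b-2-3p had 157 and 191 reads in wildtype against 353 and 193 reads in Ago2 CD, or 26.3, 21.6, 17.7 and 20.3 CPM. It was lower in both Ago2 CD libraries than in both wildtype libraries, with a log2 fold change of -0.33 (SE 0.35, interval -1.26 to 0.60, edgeR adjusted p 0.997). miR-99b-3p had 52 and 88 reads in wildtype against 169 and 81 reads in Ago2 CD, or 8.70, 9.94, 8.49 and 8.52 CPM. It too did not overlap between genotypes, and its log2 fold change was -0.13 (SE 0.35). These 2 of the 10 tested member arms were the only ones that were lower in both Ago2 CD libraries, 0 were higher in both, and among all tested arms 13.9% were lower and 15.8% higher in both. miR-125a-3p had 45, 92, 166 and 69 reads and miR-99a-3p had 25, 47, 96 and 42 reads in the 4 libraries, which overlapped between genotypes as CPM. miR-125b-1-3p had 9 to 12 reads in every library, and miR-100-3p had 7, 4, 1 and 6 reads and did not pass the filter.

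Cutting by Ago2 can help to remove the passenger strand of a duplex, so the share of 3p reads was compared for each hairpin. For Mir99a it was 0.456% and 0.820% in wildtype against 0.749% and 0.520% in Ago2 CD. For Mir99b it was 2.32% and 3.01% in wildtype against 2.32% and 2.08% in Ago2 CD, and for Mir125a 0.548% and 0.837% against 0.625% and 0.548%. Set against the shared 5p reads, the 3p share of Mir125b-2 was 2.09% and 2.11% in wildtype against 1.99% and 1.80% in Ago2 CD, and that of Mir125b-1 was 0.1495% and 0.101% against 0.0517% and 0.114%. The share was lower in both Ago2 CD libraries than in both wildtype libraries for 3 of the 6 hairpins, Mir99b (where the nearest libraries differ by less than the rounding), Mir100 and Mir125b-2, beside 17% of all 283 hairpins tested. It was higher in both Ago2 CD libraries for 0 of the 6, beside 14.5% of all.

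Mir100 had the largest difference of the 6, on few reads. Its share was 1.39% and 1.36% in wildtype (exact 95% intervals 0.562% to 2.85% and 0.372% to 3.45%) and 0.202% and 0.910% in Ago2 CD (0.00510% to 1.12% and 0.335% to 1.97%). These intervals cover counting error only, and they overlap. The log2 ratio of 3p to 5p reads was lower by 1.48 in Ago2 CD (limma, SE 0.73, adjusted p 0.995). limma called 2 of 283 hairpins (0.707%), and 0 of these 6. The other 5 changes in log2 ratio were 0.02 for Mir99a, -0.28 for Mir99b, -0.22 for Mir125a, -0.68 for Mir125b-1 and -0.15 for Mir125b-2.

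The loci of miR-125b can be separated only by their 3p strands and by reads that run beyond the shared 5p strand. They differ in the base that follows the 5p strand. Mir125b-2 gave nearly all of the 3p reads: 93.5% and 95.5% in wildtype against 97.5% and 94.1% in Ago2 CD, with exact 95% intervals whose lowest bound was 88.6%. The 5p reads that match 1 locus only were few and leaned the other way. Mir125b-1 had 65 of 85 and 55 of 68 such reads in wildtype (76.5% and 80.9%) and 116 of 150 and 66 of 98 in Ago2 CD (77.3% and 67.3%). The whole 5p strand with 1 further base, in capitals here, made up most of these reads of Mir125b-1 but not of Mir125b-2.
Mir125b-1 read: tccctgagaccctaacttgtgaT
Mir125b-2 read: tccctgagaccctaacttgtgaG
Over the 4 libraries the first had 254 of the 302 such reads of Mir125b-1, and the second 41 of the 99 of Mir125b-2. A T added to the shared 5p strand after cutting gives the same read as Mir125b-1, so that share is not a measure of the loci's output on its own. In neither measure did the genotypes separate.

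Nearly all reads were mature strands. In the 6 hairpins 5 reads of 184655 had a templated part over 27 nt, all from Mir125a and from the 50 nt libraries (4 wildtype and 1 Ago2 CD). No read of 16 nt or more lay wholly in the loop between the arms, with at most 3 bases of either arm. This allows a share of such reads of up to 0.0101% in the library with the fewest reads (3 reads of the total, counting error only). Shorter reads were not listed, and reads that reach further into an arm were not counted as loop. The limit therefore does not cover loop pieces of those kinds. Templated parts of 16 or 17 nt had 943 and 1507 reads in wildtype against 2966 and 1701 in Ago2 CD and were not counted on the arms. Reads that matched a spliced transcript of a host gene, but no hairpin and no other gene, were also counted. They numbered 0 to 4 in any library for Mir99ahg, 3110039I08Rik and Spaca6, too few to compare. Introns of the host genes were not searched.

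The 5p strands kept the 5′ end that RefSeq gives them, and so their seed, in most reads, but the share depended on the library. For miR-125a-5p 96.5% and 88.7% of untailed reads in wildtype against 88.5% and 95.01% in Ago2 CD began at that base. For miR-125b-5p these shares were 95.8% and 88.0% in wildtype against 88.3% and 95.1% in Ago2 CD. The 50 nt libraries had the higher share in both, and for miR-99a-5p and miR-99b-5p, where this held too, the share ran from 89.2% to 96.5% over the libraries. miR-100-5p did not follow read length, with 95.4% and 96.9% in wildtype against 93.9% and 93.9% in Ago2 CD. It was the 1 strand of the 5 tested with a lower share in both Ago2 CD libraries, as were 13% of all tested arms, and 0 of the 5 had a higher share in both, beside 5.91% of all. In the 46 nt libraries more reads began 4 bases later, as shown for miR-125b-5p with the missing bases in capitals.
miR-125b-5p read: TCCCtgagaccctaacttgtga
late start: tgagaccctaacttgtga
Starts 4 bases late made up 0.381% and 6.07% of miR-125b-5p reads in wildtype against 6.26% and 0.438% in Ago2 CD. For miR-125a-5p they made up 0.453% and 6.51% in wildtype against 6.95% and 0.607% in Ago2 CD. A read of this kind lacks the first 3 bases of the seed. miR-99b-5p had a like form that began 3 bases late, at 1.28% and 5.49% in wildtype against 5.05% and 1.31% in Ago2 CD, while miR-99a-5p and miR-100-5p had late starts of 3 bases at 1.53% or below in every library.

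Among the strands with over 100 reads in every library, miR-125b-2-3p had the most variable 5′ end. Its RefSeq start held 86.6% and 53.4% of the untailed reads in wildtype against 43.1% and 73.1% in Ago2 CD. Starts 3 bases earlier had 0 and 53 reads in wildtype against 137 and 0 reads in Ago2 CD, which is 27.7% and 38.8% of the strand in the 46 nt libraries and none in the others. The most frequent of these reads, with the 3 extra bases in capitals, moves the seed by 3 bases.
early start: ATCacaagtcaggttcttggga
It had 20 reads in the wildtype library and 62 in the Ago2 CD library of 46 nt reads. In the 50 nt libraries 0 reads of 157 and 193 had this start, which allows a share of up to 1.91% and 1.55% (counting error only).

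Over 254 arms the median share at the main 5′ end was 93.8% and 91.1% in wildtype against 90.7% and 92.5% in Ago2 CD, and 57.5% of arms had a higher share in both 50 nt libraries. limma on the log2 ratio of main to other 5′ ends called 0 of the 254 arms for genotype (0%), with 3 at an unadjusted p under 0.05, and 1 arm (0.394%) with read length in the model, which was not a member. The changes of the 5 member arms that reached 200 reads per library ran from -0.68 for miR-100-5p to -0.09 for miR-125b-5p on that log2 scale, with limma adjusted p-values of 0.999 for genotype alone. For miR-100-5p the limma adjusted p was 0.472 with read length in the model.

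The 3′ ends differed among the members and again between read lengths. Untailed miR-99a-5p reads were mainly 22 nt (49.4% and 46.6% in wildtype, 45.8% and 50.2% in Ago2 CD) and 21 nt (37.4% and 35.9%, 36.2% and 34.7%). miR-125a-5p was spread over 19 to 24 nt, with the RefSeq length of 24 nt at 28.01% and 39.9% in wildtype against 41.0% and 30.4% in Ago2 CD. Most 19 nt reads of miR-125a-5p ended 5 bases early, a form at 12.8%, 10.7%, 10.3% and 13.5% of the strand in the same order.

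**Figure D3:**
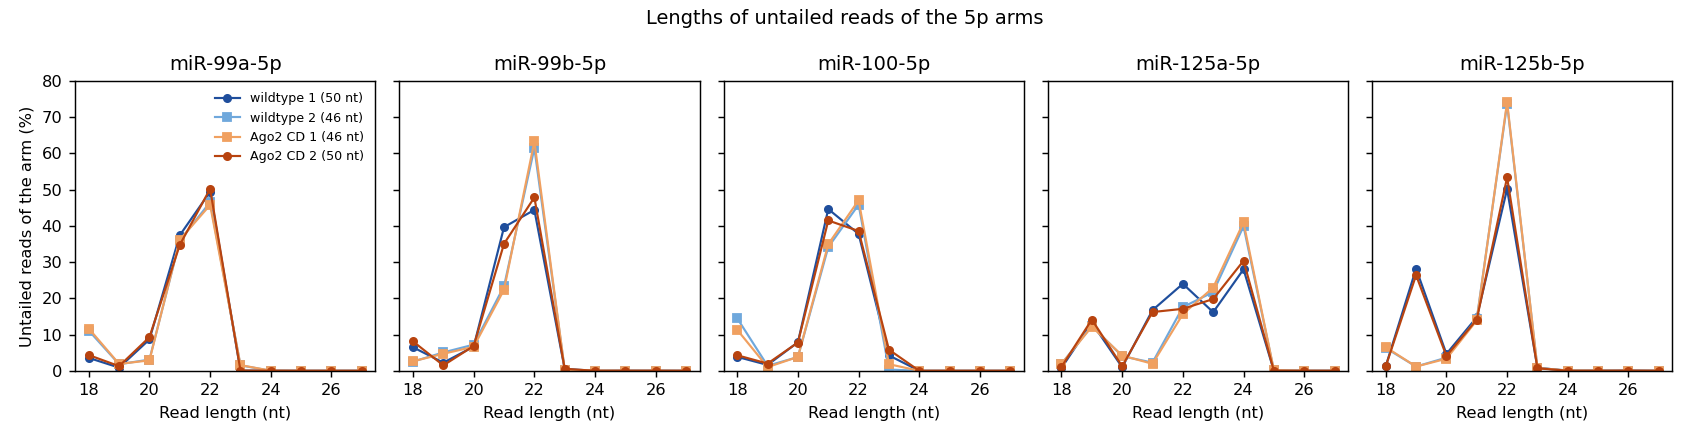
Percent of untailed reads of each 5p strand by read length, 18 to 27 nt, with a line for each library. At 19 nt of miR-125b-5p the 46 nt libraries (squares) lie close together and so do the 50 nt libraries (circles), whichever genotype they come from. At 22 nt of miR-125a-5p the 50 nt libraries lie apart, at 24.0% and 17.1%.

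In miR-125b-5p a single short form set the libraries apart. It lacks the last 3 bases of the mature strand, in capitals in the whole read.
miR-125b-5p read: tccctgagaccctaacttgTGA
short form: tccctgagaccctaacttg
The whole read made up 50.1% and 73.6% of untailed reads in wildtype against 74.1% and 53.2% in Ago2 CD. The short form had 2005 and 41 reads in wildtype against 80 and 2648 reads in Ago2 CD, that is 27.3%, 0.462%, 0.459% and 25.2%. It was high in both 50 nt libraries and low in both 46 nt libraries, in either genotype. miR-125a-5p ends in the same 3 bases, and its reads that ended 3 bases early made up 16.3% and 1.14% in wildtype against 1.06% and 15.6% in Ago2 CD.

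For miR-99a-5p, reads 2 bases short were more frequent in the 50 nt libraries and reads 4 bases short in the 46 nt libraries. The whole read is shown with the last 4 bases in capitals, followed by both short forms.
miR-99a-5p read: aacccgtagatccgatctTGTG
2 bases short: aacccgtagatccgatcttg
4 bases short: aacccgtagatccgatct
The form 2 bases short made up 7.99% and 1.56% in wildtype against 1.59% and 8.44% in Ago2 CD, and the form 4 bases short made up 2.90% and 10.5% in wildtype against 10.9% and 3.24% in Ago2 CD. miR-100-5p, which has the same bases after position 16, showed the form 4 bases short at 3.03%, 13.1%, 10.9% and 3.52%. In miR-99b-5p, which differs near the 3′ end (U21C), the form 4 bases short had the opposite tilt, with 5.67% and 0.845% in wildtype against 1.14% and 7.17% in Ago2 CD.

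**Figure D4:**
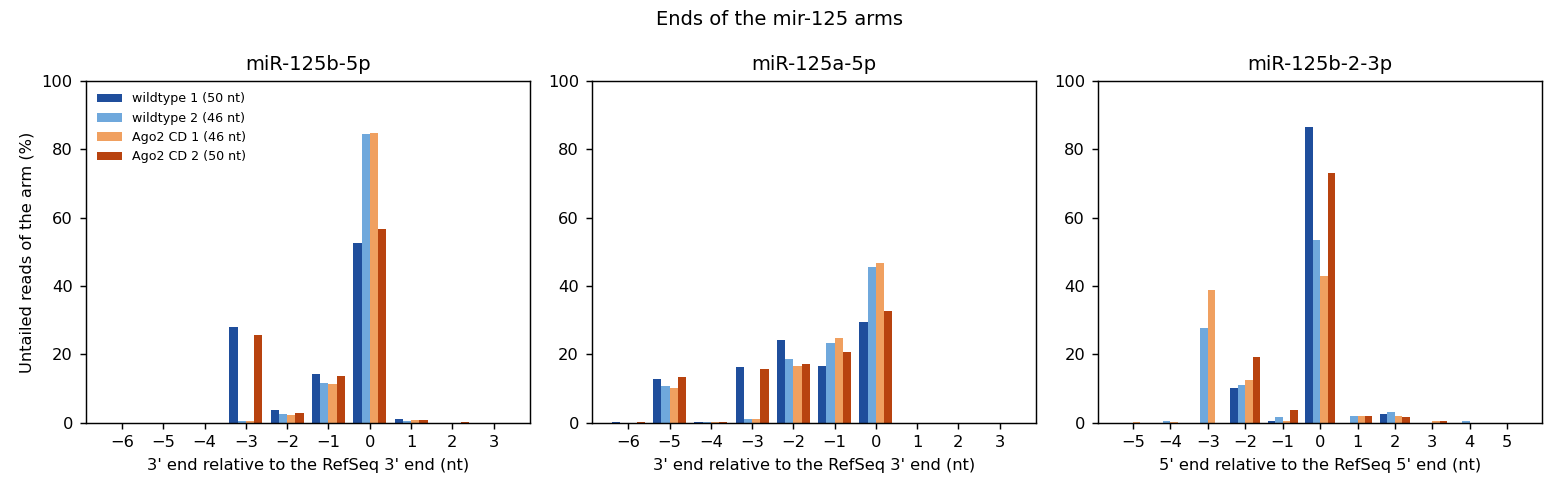
Percent of untailed reads by the position of the 3′ end of miR-125b-5p (left) and miR-125a-5p (middle) and of the 5′ end of miR-125b-2-3p (right), relative to the RefSeq end, with a bar for each library. Ends at -3 of miR-125b-5p hold 27.9% and 25.7% in the 50 nt libraries and 0.507% and 0.471% in the 46 nt libraries, and starts at -3 of miR-125b-2-3p are seen in the 46 nt libraries only.

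The mean length of miR-125b-5p was 20.9 and 21.5 nt in wildtype against 21.5 and 20.9 nt in Ago2 CD. The difference between the genotypes was 0.04 nt (limma, SE 0.34, adjusted p 0.9998), while the 50 nt libraries were 0.600 nt shorter than the 46 nt libraries. miR-125a-5p was 0.359 nt and miR-99b-5p 0.238 nt shorter in the 50 nt libraries, and miR-99a-5p and miR-100-5p were 0.186 nt and 0.209 nt longer. The median size of that difference over 254 arms was 0.233 nt, and miR-125b-5p ranked 42 among them. limma called 1 of the 254 arms for genotype (0.394%), which was not a member. How the adapters were trimmed in each library is not given in the sources used here, and its part in these ends was not tested.

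Extra nucleotides at the 3′ end, as terminal transferases add them, were more frequent on the miR-99 and miR-100 5p strands than on those of miR-125. The median tailed share of the 277 arms tested was 21.0% and 13.3% in wildtype against 12.5% and 23.2% in Ago2 CD. miR-99a-5p was above this median in every library, and miR-125a-5p and miR-125b-5p were below it in every library. In Ago2 CD replicate 2, miR-99b-5p was below the median and miR-100-5p equal to it. Tailed reads were 25.2% and 21.2% of miR-99a-5p in wildtype against 19.5% and 28.4% in Ago2 CD. They were 23.8% and 16.4% of miR-100-5p in wildtype against 18.2% and 23.2% in Ago2 CD, and 21.5% and 15.6% of miR-99b-5p against 14.3% and 19.8%. miR-125a-5p carried them in 14.8% and 8.49% of reads in wildtype against 6.98% and 14.8% in Ago2 CD, and miR-125b-5p in 7.51% and 5.28% against 4.80% and 7.50%. In all 5 strands the 50 nt libraries were the higher ones in each genotype. Among the 3p strands, miR-125b-2-3p was tailed in 34.6% and 28.7% in wildtype against 26.5% and 30.8% in Ago2 CD.

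The 50 nt libraries held many tails of a single cytosine. On miR-99a-5p it was found in 9.96% and 0.0970% of reads in wildtype against 0.0886% and 11.5% in Ago2 CD, and on miR-125a-5p in 8.19% and 0.0840% against 0.0529% and 8.08%. Many of these cytosines sat on the shortened ends described above, as in the most frequent such read of each, with the added base in capitals.
miR-99a-5p with C: aacccgtagatccgatcttgC
miR-125a-5p with C: tccctgagaccctttaacctgC
The first had 505 and 3 reads in wildtype against 5 and 875 in Ago2 CD, and the second had 595 and 0 reads in wildtype against 5 and 884 in Ago2 CD. Over the 277 arms tested for tails, the median share with a single added cytosine was 9.24% and 0.0840% in wildtype against 0.106% and 11.3% in Ago2 CD, so the members shared this split with the other arms.

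**Figure D5:**
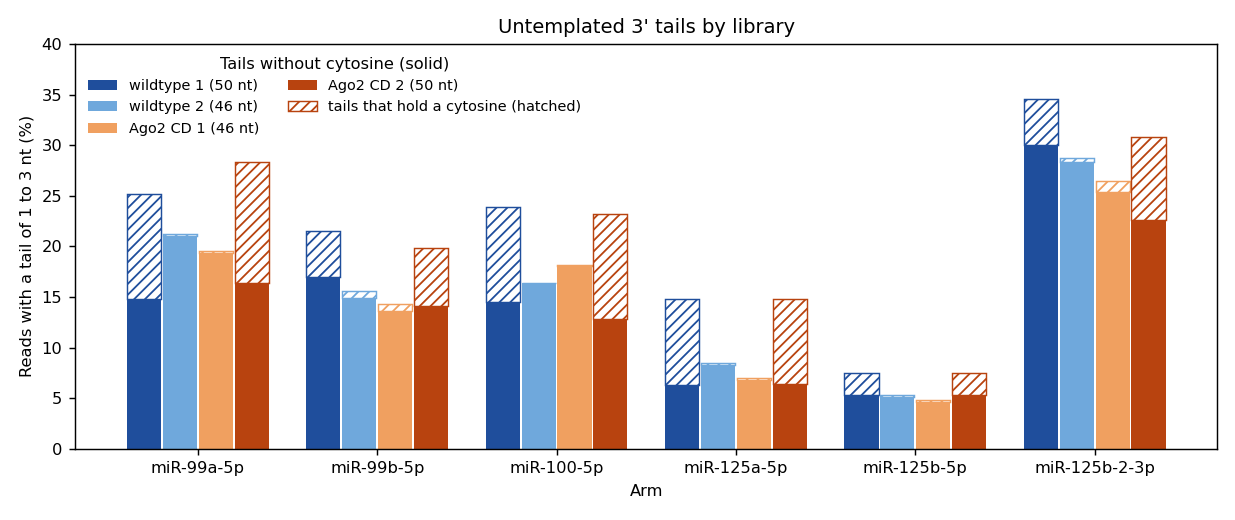
Percent of reads of 6 strands with a tail of 1 to 3 nt in each library, split into tails without cytosine (solid) and tails that hold a cytosine (hatched). The hatched part reaches 11.9% on miR-99a-5p of Ago2 CD replicate 2 and is at most 1.04% on every strand in the 46 nt libraries.

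On the 5p strands, tails without cytosine were mainly a single added A or U, and miR-125a-5p and miR-125b-5p had the lowest shares of them in every library. They were present on 14.8% and 21.0% of miR-99a-5p reads in wildtype against 19.4% and 16.4% in Ago2 CD. On miR-125b-5p they were present on 5.34% and 5.15% in wildtype against 4.66% and 5.29% in Ago2 CD, the most even value of the 6 tested strands. Among 277 arms ranked by this share, miR-125b-2-3p ranked 31 to 43, miR-99a-5p 57 to 87 and miR-99b-5p 66 to 125. miR-100-5p ranked 79 to 106, miR-125a-5p 176 to 209 and miR-125b-5p 195 to 234. An added U, read as T, was found on 7.78% and 11.7% of miR-99a-5p reads in wildtype against 10.5% and 8.73% in Ago2 CD, where the median of the tested arms was 2.82% to 3.48%. An added A was found on 6.23% and 8.16% in wildtype against 7.94% and 6.74% in Ago2 CD, where that median was 2.25% to 4.16%.

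In total tailed share 0 of the 6 tested member strands were higher in both Ago2 CD libraries (2.17% of all 277 arms) and 0 were lower in both (4.69%). Tails without cytosine were lower in both Ago2 CD libraries for 2 of the 6, beside 12.6% of all arms, and higher in both for 0, beside 1.44%. Those strands were miR-125b-2-3p, at 30% and 28.4% in wildtype against 25.4% and 22.6% in Ago2 CD, and miR-99b-5p, at 16.99% and 14.9% against 13.6% and 14.1%. Of the strands with too few reads for the test, miR-125a-3p had a lower tailed share in both Ago2 CD libraries (17.4% and 17.9%, from 35 and 15 tailed reads) than in wildtype (23.7% and 27.6%, from 14 and 35). miR-99b-3p had a higher one in both, by a margin of under 1 percentage point between the nearest libraries (46.4% and 43.9% in wildtype against 46.5% and 48.7%). limma on the log2 ratio of tailed to untailed reads called 0 of 277 arms (0%), with 0 at an unadjusted p under 0.05. The log2 changes of the 6 tested member strands ran from -0.21 for miR-125b-2-3p to 0.06 for miR-100-5p, each with a limma adjusted p of 0.999. With read length in the model 2 arms were called (0.722%), none of them a member. For tails without cytosine in that model 1 arm was called (0.361%), and the largest member change was that of miR-125b-2-3p, with a log2 change of -0.35 (limma adjusted p 0.337).

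By the root mean square difference of log2 CPM centred on its mean over the 4 libraries, the members did not form a single pattern. miR-99b-5p and miR-125a-5p, neighbours on chromosome 17, differed by 0.0880, and miR-99a-5p and miR-125b-5p by 0.0974. miR-100-5p differed from the other 4 by 0.480 to 0.677. Among arms with a mean of at least 100 CPM, those most like miR-99a-5p were miR-351-5p (0.0236) and miR-127-3p (0.0678). Those most like miR-125b-5p were miR-337-5p (0.0347) and the merged 3p arm of miR-103 and miR-107 (0.0480). miR-99b-5p was most like miR-192-5p (0.0430) and miR-423-3p (0.0637), miR-125a-5p most like miR-484 (0.0428) and miR-376c-3p (0.0862), and miR-100-5p most like miR-199a-5p (0.0644) and miR-301b-3p (0.107). With 4 libraries this describes likeness across the same 4 points, which differ in genotype and in read length.

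Of the 8 arms of the progenitor list, 0 passed the edgeR test, and their median log2 fold change was -0.02 beside 0.04 for all tested arms. The summed level of the list was 17129 and 7816 CPM in wildtype against 7688 and 15776 CPM in Ago2 CD, so it was higher in both 50 nt libraries, as were miR-99a-5p, miR-99b-5p, miR-125b-5p and miR-100-5p. In the 50 nt libraries the largest part of that sum was miR-130a-3p, with 12436 and 3083 CPM in wildtype against 3171 and 11320 CPM in Ago2 CD. In the 46 nt libraries miR-126a-3p was slightly higher than it, at 3296 and 3185 CPM, and miR-29a-3p stood at 391 to 655 CPM over the libraries. The arms of the list did not move together with read length. miR-130a-3p, miR-196b-5p, miR-10a-5p and miR-221-3p were higher in both 50 nt libraries, and miR-126a-3p and miR-29a-3p were lower in both. miR-155-5p and miR-222-3p overlapped between the read lengths.

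Sums over marker arms of other cell types are given beside the members' levels. The hepatocyte list (miR-122-5p, miR-192-5p and miR-194-5p) was lower in the 50 nt libraries, at 25184 and 33937 CPM against 55947 and 70482 CPM. Most of that sum was miR-122-5p, at 19029 and 27534 CPM in the 50 nt libraries against 48658 and 62650 CPM, and miR-192-5p went the other way, at 3773 and 4022 CPM in the 50 nt libraries against 3049 and 3517 CPM. The mesenchymal list of 4 arms had 2329 and 3162 CPM in wildtype against 3075 and 2025 CPM in Ago2 CD, and the endothelial list of 2 arms 8252 and 6189 CPM against 6240 and 7520 CPM. The muscle list of 3 arms stood at 706 CPM in wildtype replicate 1 and at 13.3 to 34.7 CPM in the other libraries, and miR-9-5p of the neuron list at 10.4 and 166 CPM in wildtype against 216 and 13.8 CPM in Ago2 CD. miR-124-3p of that list had no matching arm with reads. Of the erythroid list, 1 of 4 arms passed the edgeR test, miR-451a. Their part in the levels of the members was not tested.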

How the data were processed

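The deposited files list each distinct read with its count after adapter removal with cutadapt, which the submitters' processing notes name without a version or settings. Counts in the 4 libraries (2 per genotype) came from the authors, in unnormalized reads. Reads were matched without mismatch to 2202 hairpins of GENCODE vM21 (GRCm38), which may not be the authors' annotation, and 7814124 to 14423028 reads per library lay on arms. Reads of 18 to 27 nt were given to the 5p or 3p arm by the position of their centre within the hairpin. Arms were merged where their most frequent reads agreed over the first 18 nt, or where the most frequent read of an arm lay within that of another. Tails are 1 to 3 nt that do not match a hairpin, without genome alignment. Reads that fit several arms (0.00878% to 0.0293%) were left out.

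Arms and clusters (hairpins within 100 kb) were tested with edgeR 4.0.16 (TMM, filterByExpr, quasi-likelihood, 2-sided), and ratios, tails, lengths and 5′ ends with limma 3.58.1, all over every arm, with Benjamini-Hochberg adjusted p under 0.05. Ratios added 0.5 reads. Hairpins needed 20 reads per library and 10 on the minor arm for arm ratios, and arms needed 200 reads per library for tails, lengths and 5′ ends. DESeq2 1.42.0 was an alternative. Scripts were tested on simulated data. The members, lists and alternatives were chosen with earlier results of these data known. Named with values were every member arm, the 3 most abundant arms of the progenitor list and the 2 arms most like each 5p member. Of the let-7 arms of the same clusters, the 5p arms, let-7e-3p and let-7c-1-3p were named. Same-numbered replicates deviated in opposite directions (correlation -0.764 for log2 CPM), so the numbers do not pair the libraries. In 2 files 4152 and 5617 sequences were listed more than once, and their counts were added.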

Additional observations from a re-analysis of the deposited data

How the results depend on the processing

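No member crossed the threshold under any alternative run. The count of called arms, 2 in edgeR, was 6 with DESeq2, 11 without a filter on low counts and 10 with read length in the model, and 0 to 4 when each library was left out in turn (0 without either Ago2 CD replicate, 4 without wildtype replicate 2). Called clusters, 1 of 247, were 5 without the filter, 4 with read length and 0 to 4 with a library left out (0 without either wildtype replicate, 4 without Ago2 CD replicate 2). Called arm ratios, 2 of 283, were 0 with the replicate number as a block (replicate block) and 0 to 1 with a library left out (1 without wildtype replicate 1). Called tails, 0 of 277, were 2 with read length and 1 for tails without cytosine with read length. The 1 called length was 0 with a minimum of 50 reads, with reads of 16 to 30 nt, with the replicate block and with any library left out, and the 0 called 5′ ends became 1 with read length. The causes were not tested.

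With reads on arms as library size the log2 fold change turned positive for miR-99a-5p (0.69), miR-99a-3p (0.65), miR-99b-3p (0.56), miR-100-5p (0.51), miR-125a-3p (0.47), miR-125b-5p (0.56), miR-125b-2-3p (0.41), and the clusters on chromosomes 16 (0.68) and 9 (0.53), where the median arm was at 0.74. miR-99a-3p was 0.010 without the filter, the Mir99a ratio -0.057 with a pseudocount of 5 and -0.019 with tailed reads counted, miR-100-5p tails without cytosine -0.014 with and without read length in the model, and the length of miR-99b-5p -0.023 nt with tailed reads counted.

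Leaving out each library in turn changed the sign of many values near 0, none of them called. The log2 fold change ran from -0.28 to 0.25 for miR-99a-5p, -0.15 to 0.17 for miR-99a-3p, -1.19 to 0.54 for miR-100-5p, -0.028 to 0.15 for miR-125a-5p, -0.36 to 0.077 for miR-125a-3p and -0.33 to 0.025 for miR-125b-5p. For the clusters it ran from -0.35 to 0.12 on chromosome 16, -0.074 to 0.15 on chromosome 17 and -0.75 to 0.17 on chromosome 9, and for the log2 arm ratio from -0.40 to 0.44 for Mir99a and -0.52 to 0.088 for Mir125a. For the log2 tailed ratio it ran from -0.31 to 0.40 for miR-99a-5p, -0.44 to 0.14 for miR-99b-5p, -0.27 to 0.39 for miR-100-5p, -0.76 to 0.46 for miR-125a-5p and -0.42 to 0.27 for miR-125b-5p. For the mean length in nt it ran from -0.12 to 0.068 for miR-99a-5p, -0.11 to 0.14 for miR-99b-5p, -0.054 to 0.22 for miR-100-5p, -0.14 to 0.22 for miR-125a-5p and -0.28 to 0.35 for miR-125b-5p. For the log2 ratio at the main 5′ end it ran from -0.80 to 0.36 for miR-99a-5p, -0.71 to 0.49 for miR-99b-5p, -1.20 to 0.62 for miR-125a-5p and -0.90 to 0.72 for miR-125b-5p. Each such fit assumes that the lone library of a genotype varies like the others.

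The replicate block changed no member's call, with log2 fold changes of -0.06 for miR-99a-5p and -0.33 for miR-100-5p. Same-numbered libraries deviated oppositely in log2 CPM (-0.764), tails (-0.939), arm ratios (-0.638) and lengths (-0.978), and the crossed pairing is the same model as the read length term, with 10 arms called. Read length, and whatever was done differently with it, cannot be told apart here. With 2 libraries per genotype, few reads on miR-100-3p and miR-125b-1-3p, and tails not aligned to a genome, small changes were not detectable.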
